A study of Mus musculus with 20 samples.

Results

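The promoters of ribosomal protein genes were examined in mouse sperm DNA. These were the promoters whose gene symbol is Rpl, Rps or Rplp followed by a number, located on chromosomes 1 to 19, after removal of the Rps6k kinases. The rule gave 86 promoters of the 22480 measured, and they lay on 18 chromosomes, with 15 of them on chromosome 7. They comprised 71 canonical ribosomal protein genes, 8 paralogs with a symbol that ends in l or l and a number, 6 pseudogene symbols (ending in -ps and a number), and Rps19bp1, a gene named for a protein that binds Rps19. A further 4 symbols of the same form lay on chromosome X and were kept apart as a comparison.

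Sperm was collected at 8 weeks of age from male offspring of 4 groups of mothers, with 5 libraries in each group and 20 in all. The groups were C57BL/6J control and C57BL/6J DEHP, and likewise FVB/N control and FVB/N DEHP, and the 4 values given for a promoter stand in that order. Both strains were wild type. DEHP, or di-(2-ethylhexyl) phthalate, softens plastics and interferes with hormone action in rodents. The mothers received it orally in corn oil at 300 mg/kg/day from day 9 to day 19 of gestation, whereas control mothers received corn oil only. The 5 libraries of a group came from 5 mice, but no source gives the litters, and so mice of a group may share a mother. Control and DEHP samples were submitted for sequencing as separate batches with different read lengths, which means that an effect of treatment cannot be told apart from one of batch.

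Methylated DNA was captured with a methyl binding domain and sequenced (MBD-sequencing). The number of reads over a promoter therefore depends both on the methylation of its CG sites and on how many CG sites it has, and it is not a percentage of methylation. The measured promoter, here called the probe, was 2200 bp long, from 2000 bp before the start of the gene to 200 bp after it. Values are the authors' means and SDs of normalized reads per group, with 1 decimal. Single libraries are not analysed here. The methods give the depth only as an average per treatment, higher for DEHP than for control libraries, and the depth of single libraries and the number of reads behind a mean were not examined.

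Ribosomal proteins assemble with ribosomal RNA into the large (Rpl) and small (Rps) subunits of the ribosome, and Rplp proteins form the acidic stalk of the large subunit. Their genes are expressed in nearly every cell from promoters rich in CG sites, of the kind that normally stays free of methylation in both the germline and the soma. Ribosomal protein genes have also left many copies elsewhere in the genome through retrotransposition. Most of those copies are silent pseudogenes, but a few, such as Rpl10l, are active genes in the testis, where the X chromosome is silenced during meiosis.

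The promoters on which the results turn differ in where their CG sites lie. The 200 bases just before the start site are shown for 6 of them, 5′ to 3′, from RefSeq (GRCm38.p6), with each CG site in capitals, since CG is the site of methylation that the capture protein binds. Rpl37a is shown as a canonical promoter with almost no reads and Rpl12 as the canonical promoter with the most. Rpl13 and Rps27l are shown for their differences between groups, and Rpl10l and Rpl39l as the testis paralogs of X-linked genes.
Rpl37a (chr1:72711060-72711259, plus strand): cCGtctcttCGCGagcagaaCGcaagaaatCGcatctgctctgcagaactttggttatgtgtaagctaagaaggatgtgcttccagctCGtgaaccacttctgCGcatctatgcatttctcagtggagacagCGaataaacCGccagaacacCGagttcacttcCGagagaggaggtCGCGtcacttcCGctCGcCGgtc
Rpl12 (chr2:32961512-32961711, plus strand): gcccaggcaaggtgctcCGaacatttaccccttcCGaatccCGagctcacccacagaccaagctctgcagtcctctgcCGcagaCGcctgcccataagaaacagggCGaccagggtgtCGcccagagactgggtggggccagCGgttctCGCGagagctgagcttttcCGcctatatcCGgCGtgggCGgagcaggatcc
Rpl13 (chr8:123102150-123102349, plus strand): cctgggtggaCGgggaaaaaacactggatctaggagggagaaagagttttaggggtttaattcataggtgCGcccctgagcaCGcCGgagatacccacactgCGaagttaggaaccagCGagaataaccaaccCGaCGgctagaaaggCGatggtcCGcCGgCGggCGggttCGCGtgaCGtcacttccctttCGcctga
Rps27l (chr9:66945886-66946085, plus strand): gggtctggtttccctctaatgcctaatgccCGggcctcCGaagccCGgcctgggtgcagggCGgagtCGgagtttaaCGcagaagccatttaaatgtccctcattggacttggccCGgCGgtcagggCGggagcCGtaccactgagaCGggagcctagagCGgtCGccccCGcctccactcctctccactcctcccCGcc
Rpl10l (chr12:66284402-66284601, minus strand): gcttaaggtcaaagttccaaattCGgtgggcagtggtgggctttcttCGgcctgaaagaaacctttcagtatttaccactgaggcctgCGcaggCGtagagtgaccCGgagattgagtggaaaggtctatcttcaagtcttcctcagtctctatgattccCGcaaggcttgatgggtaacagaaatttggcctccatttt
Rpl39l (chr16:10170028-10170227, plus strand): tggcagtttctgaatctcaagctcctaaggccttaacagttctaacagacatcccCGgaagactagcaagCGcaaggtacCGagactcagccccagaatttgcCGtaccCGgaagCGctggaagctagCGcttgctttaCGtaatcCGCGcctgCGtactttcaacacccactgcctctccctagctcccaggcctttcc

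The 4 promoters Rpl37a, Rpl12, Rpl13 and Rps27l held 16, 14, 17 and 15 CG sites in these 200 bases, although the mean level of their probes ranged from 1.0 to 25.1 normalized reads. Rpl39l held 11 CG sites and Rpl10l held 6. The RefSeq promoter table had an entry for 60 of the 86 members, 51 of them canonical, covering 250 bases before and 50 bases after the start.

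Short sequence motifs were counted in these windows of 300 bases. The letters CCGGAAG, which are the core of the site bound by ETS factors such as GABP and which hold a CG site themselves, were found on either strand in 20 of 51 canonical members (39.2%), compared with 9.12% of the 27025 genes with an entry. Rpl39l carried them at 2 places among the 200 bases shown. The letters GGGCGG, the GC box, were found on either strand in 56.9% of canonical members and 35.9% of all promoters, and AAGATGGC, the core of the YY1 site, in 9.80% and 2.88%. The TATA box, searched as TATAAA on either strand, was found in 7.84% and 14.2%. The letters CTTTNC, where N is any base, resemble the pyrimidine tract at which ribosomal protein transcripts begin. They were found on the sense strand within 20 bases of the start in 21.6% of canonical members and 4.77% of all promoters. None of these motifs contains another, and a match is a description of the letters only. CCGGAAG and GGGCGG each hold a CG site, and their shares were not compared with promoters of similar CG number. The 20 canonical members with CCGGAAG had a median level of 4.03 normalized reads and the 31 without it had 3.83.

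Most canonical ribosomal protein promoters had few reads for the number of CG sites they hold. Across the 4 groups, the mean level of the 71 canonical promoters had a median of 3.90 normalized reads, compared with 4.65 for all promoters, with quartiles of 2.04 and 6.14. They held a median of 66 CG sites, compared with 45 for all promoters. Expressed per CG site, the median was 5.76 normalized reads per 100 CG sites in canonical members and 12.7 in all promoters. All promoters with 46 to 70 CG sites, the class that holds the canonical median, had a median of 7.63 normalized reads per 100 CG sites. Those with over 70 CG sites had 3.36, so that a low value is shared with other CG-rich promoters. The other housekeeping lists were alike, with medians of 4.14 normalized reads for 74 mitochondrial ribosomal proteins, 4.03 for 59 translation factors and 2.85 for 32 ribosome biogenesis genes. The 4 X-linked genes Rpl10, Rpl36a, Rpl39 and Rps4x had 1.13, 2.85, 1.28 and 0.775 normalized reads, but only the sperm that carry an X contribute to these values.

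**Figure D1:**
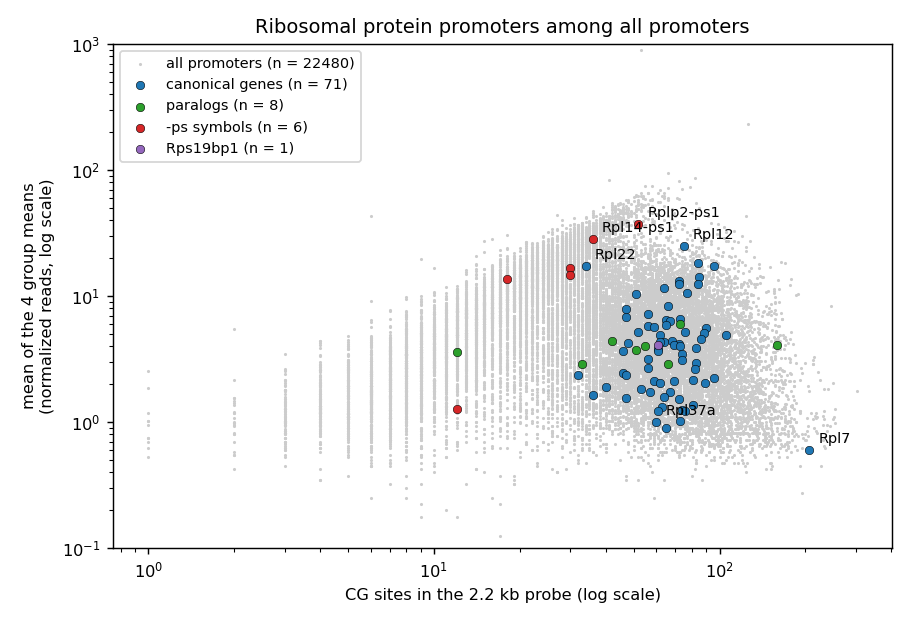
Mean of the 4 group means (normalized reads, log scale) against the number of CG sites in the probe (log scale) for all 22480 promoters (grey) and the 86 members, coloured by class. Most canonical genes lie among the CG-rich promoters with few reads, whereas 5 of the 6 pseudogene symbols lie at 10 normalized reads or more.

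The lowest canonical promoters were almost free of reads in every group. Rpl7, a protein of the large subunit, had authors' means of 1.2, 0, 1.0 and 0.2 normalized reads in the 4 groups, although its probe held 206 CG sites, the most of any member. Its probe also overlaps an exon of the neighbouring gene Rdh10, and 114 of its CG sites lay in the distal kilobase, 1000 to 2000 bp before the start. Rpl37a, also of the large subunit, had 0.5, 1.7, 0.9 and 0.9 normalized reads in the same order with 60 CG sites. At these levels the SDs were about as large as the means, the ranges overlapped, and no difference between groups was detectable.

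At the other end, 11 of the 71 canonical promoters (15.5%) reached 10 normalized reads or more, compared with 23.9% of all promoters. Rpl12, a protein at the base of the stalk, had the highest level, with authors' means of 36.9 (SD 11.0), 16.2 (SD 6.2), 24.3 (SD 11.4) and 22.9 (SD 3.7) in the same order of groups and 75 CG sites. Rpl22, of the large subunit, had 24.0, 14.9, 13.0 and 17.7 with 34 CG sites. Within 1 SD, Rpl12 and Rpl22 overlapped in each of the 4 groups, so their order is not resolved.

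The annotation around the probes was compared next. The probe's start site lay within 100 bp of an annotated GENCODE transcript start of the same gene in 82 of the 86 members. The canonical exceptions were Rpl22, whose probe ends before the gene and overlaps none of its exons since its start site has an offset of −1306 bp from the annotated one, and Rpl18, whose start site in the probe lies 691 bp inside the gene. These 2 promoters had 17.4 and 12.5 normalized reads, while the other 69 canonical promoters had a median of 3.83. Probes of 27 members overlapped an exon of another protein-coding gene. Among them was Rpl12, whose probe overlaps Lrsam1.

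The CG sites of canonical members were concentrated at the start. Their probes held on average 18.3 CG sites in the 200 bp after the start and 14.6 in the 200 bp before it, compared with 12.2 and 10.3 in all promoters, but 2.18 in the most distal 200 bp, compared with 2.09. The level followed the CG sites in the distal kilobase and not the total. Across the 71 canonical members, Spearman's rho between the level and the number of CG sites was 0.48 for the distal kilobase, −0.08 for the remaining 1200 bp and 0.10 for the whole probe. Across all 22480 promoters it was 0.35, −0.21 and −0.15. The 10 highest canonical promoters held a median of 17 CG sites in the distal kilobase and the 10 lowest 8.5, whereas their probes as a whole held 76 and 72.5. These correlations are across promoters of the same libraries, which also differ in base composition, and promoters are not independent replicates. Rpl7 goes against the pattern, with the most distal CG sites and the fewest reads.

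**Figure D2:**
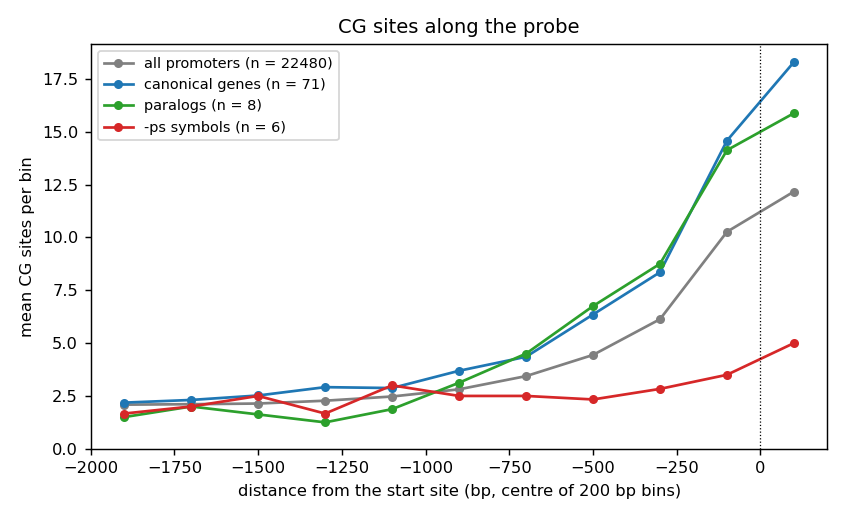
Mean number of CG sites per 200 bp bin against the distance from the start site (bp) for all promoters, canonical genes, paralogs and pseudogene symbols. Canonical genes reach 18.3 CG sites in the bin after the start, whereas the 6 pseudogene symbols have no peak of that height and reach 5.0.

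Among the members, the pseudogene symbols were the exception in level. Of the 6, 5 had 10 normalized reads or more, and their median was 15.6 with a median of 30 CG sites, or 63.3 normalized reads per 100 CG sites. By the median, these promoters hold fewer CG sites than canonical genes (30 against 66), and on average they lack the dense stretch at the start. Not each of them does so, since Rplp2-ps1 with 52 CG sites holds more than some canonical genes, such as Rpl6 with 32. All promoters with 24 to 45 CG sites had a median of 9.03 normalized reads, with quartiles of 3.75 and 18.45. The pseudogene median of 15.6 lies within these quartiles. Per 100 CG sites, the median of this class was 26.6 normalized reads. Rplp2-ps1, a copy of the stalk protein gene Rplp2, had the highest level of all members, with authors' means of 70.3 (SD 8.8), 22.6 (SD 8.9), 37.9 (SD 10.5) and 17.8 (SD 3.2) in the 4 groups. Its mean level of 37.2 normalized reads was at the percentile 98.9 of all promoters. The probe (chr12:75631550-75633749, minus strand, mm10) lies wholly inside the gene Wdr89 and holds 52 CG sites. The parent gene Rplp2 had 3.8, 5.2, 1.8 and 5.8 normalized reads with 72 CG sites.

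Rpl14-ps1, inside Trpm4, was the next, with 41.4, 21, 29.5 and 21.5 normalized reads and 36 CG sites. Rps15a-ps4, whose probe overlaps an exon of Gmeb1, had 20.3, 14.5, 17.5 and 13.9. Rps19-ps3, whose probe overlaps an exon of Zfp933, had 17.3, 15.2, 13.4 and 12.8. Rps15a-ps6, inside Nudcd3, had 19.1, 14.2, 8.1 and 13.7. Rps15a-ps6 had a log2 ratio of 1.14 between the strains in controls, which was 0.51 and 0.47 after scaling to equal sums and equal medians, and the ranges of all 3 overlapped in every comparison. Rpl31-ps12, inside Spag6l, stood apart with 1.9, 0.8, 1.3 and 1.1 normalized reads, but its probe held only 12 CG sites. RefSeq annotates it as protein coding, whereas the other 5 are transcribed pseudogenes there. Outside the members, the promoters with the most similar 4 group means to Rplp2-ps1, by the distance of their log2 means over the 4 groups, were Zfhx2os, 1810013A23Rik, Mirlet7b, Zap70 and Mir7118, each between 65.7 and 75.9 normalized reads in C57BL/6J controls.

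The 8 paralogs, unlike most of the pseudogene symbols, had levels close to those of canonical genes, between 2.88 and 5.98 normalized reads with a median of 3.85. Rpl10l, the testis copy of the X-linked Rpl10, had 4.0 (SD 2.2), 2.9 (SD 2.1), 7.5 (SD 0.6) and 3.1 (SD 1.6) normalized reads in the same order of groups. Rpl39l, the testis paralog of the X-linked Rpl39, had 2.8, 2.7, 4.4 and 1.6 with 33 CG sites, and Rps4l, related to the X-linked Rps4x, had 1.4 (SD 1.6), 3.9 (SD 1.6), 6.2 (SD 0.6) and 3.3 (SD 2.2) with 51. All 3 had their highest mean in FVB/N controls. GENCODE and RefSeq both annotate Rps4l as a transcribed pseudogene, and its probe lies inside Tmtc1. Rpl36al, the paralog of the X-linked Rpl36a, had 6.8, 2.6, 3.8 and 3.3 with 159 CG sites. The muscle gene Rpl3l, with 12 CG sites, had 3.6, 5.7, 1.9 and 3.1 normalized reads. Rpl22l1 had 5.4, 2.9, 2.0 and 1.3, and Rpl7l1 had 5.3, 3.4, 4.5 and 2.8. Rps19bp1 had 3.8, 4.0, 2.2 and 6.4 normalized reads, within the range of canonical genes.

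The source of the DNA was checked with 3 lists. The first holds 4 genes with an imprint that is methylated in sperm, and whether their probes reach the imprinted region was not examined. H19 had 25.3, 18.0, 18.8 and 17.5 normalized reads and Meg3 25.8, 9.2, 7.0 and 5.2. By contrast, Rasgrf1 and Zdbf2 had mean levels of 2.93 and 2.95, below the median of all promoters. The second holds 14 genes with an imprint that is free of methylation in sperm and partly methylated in somatic cells. Whether their probes reach the imprinted region was likewise not examined. These 14 probes summed to 79.5, 71.9, 60.6 and 74.9 normalized reads. None of the 14 had a mean level of 0, and the highest was Nnat with 26.5, 9.5, 18.1 and 14.6. The third holds 8 germline promoters, listed as free of methylation in sperm and methylated in most somatic cells. Their mean level was nevertheless not low, with a median of 8.70 normalized reads, compared with 4.65 for all promoters. The 8 summed to 82.2, 59.9, 74.9 and 55.7 normalized reads, with medians of 10.7, 7.05, 9.50 and 6.90, and none was at 0. The highest of them in the 4 groups were Tex101 (16.9 and 13.4), Tdrd1 (15.4) and Tex101 (13.2). According to the methods, somatic cells were looked for by microscopy, and only sperm without them was used. These lists give no share of somatic cells, and what part such cells have in these levels or in the group differences was not tested.

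In controls, the question was whether the strains differ at these promoters. The largest distance of any of 5 libraries from their mean is 1.79 SD if the SD divides by the number of libraries less 1. This was assumed for the authors' SDs. If an SD divides by the full number, the largest distance is 2 SD, and that bound was run as an alternative. If the ranges of 1.79 SD do not overlap between 2 groups, the libraries are completely separated under this assumption. For separated libraries the exact permutation test of 5 libraries against 5, two-sided, gives p = 0.00794, which is the smallest it can give. Overlapping ranges leave a comparison undecided. Between the strains in controls, libraries were separated in 1.09% of all promoters, 1.06% higher and 0.0267% lower in C57BL/6J. Among the 86 members 3 were separated, of which 2 were higher and 1 lower. Adjusted over all 22480 promoters by the Benjamini-Hochberg method, this exact permutation p is at most 0.728, the value it takes if no undecided promoter is separated. Whether it would pass a threshold of 0.05 is not known from the means and SDs.

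Rps27l, a paralog of the small subunit gene Rps27 that is induced by p53, had 12.8 (SD 3.3) normalized reads in C57BL/6J controls and 1.6 (SD 2.0) in FVB/N controls. The log2 ratio of means, C57BL/6J over FVB/N with a pseudocount of 1, was 2.41. Rpl29, of the large subunit, had 8.5 (SD 1.3) and 1.6 (SD 1.0), a log2 ratio of 1.87. Rps4l went the other way, with 1.4 (SD 1.6) in C57BL/6J and 6.2 (SD 0.6) in FVB/N, and its log2 ratio was −1.58. The libraries of the strains did not overlap in any of the 3 (exact permutation p = 0.00794). Rpl29 and Rps4l were also separated after scaling the groups to equal sums or to equal medians, but Rps27l was not, although its log2 ratio was 1.85 and 1.88 under these scalings, compared with 1.33 and 1.35 for Rpl29. Under both of these scalings Rpl10l was separated as well, lower in C57BL/6J, with 4.0 and 7.5 normalized reads before scaling.

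**Figure D3:**
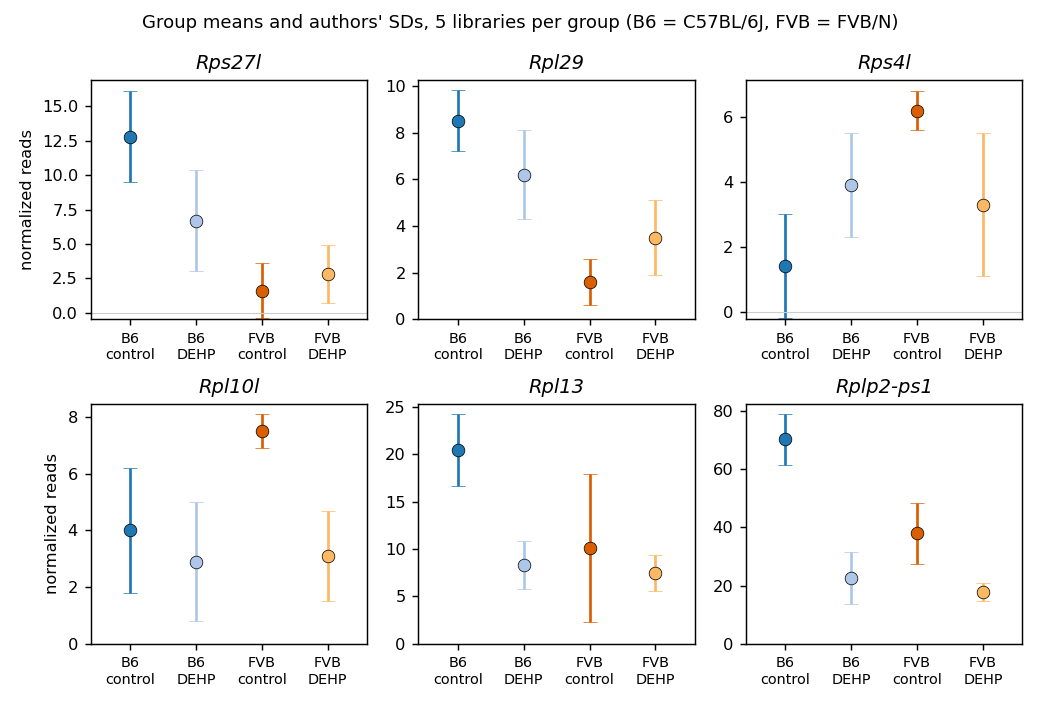
Authors' mean (points) and SD (bars) of normalized reads in the 4 groups of 5 libraries for the 6 members whose libraries were separated in at least 1 comparison. Rps27l and Rpl29 are highest in C57BL/6J controls, Rps4l and Rpl10l in FVB/N controls, and Rpl13 and Rplp2-ps1 are higher in C57BL/6J controls than after DEHP.

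The balance of 2-fold differences between the control groups depended on the scaling. Of the 86 members, 17 had a log2 ratio of 1 or more and 1 had −1 or less, compared with 17.1% and 0.609% of all promoters. After scaling to equal sums the counts were 8 and 6, against 3.21% and 2.55% of all promoters, and after scaling to equal medians 8 and 7, against 3.50% and 4.14%. The median log2 ratio was 0.39 in the members and 0.54 in all promoters, and it was −0.07 and −0.11 in the members after scaling to equal sums and equal medians, so its direction depends on the scaling. Rpl17, of the large subunit, had 7.4 (SD 4.0) and 1.0 (SD 1.0) normalized reads in the control groups, with a log2 ratio of 2.07, but its ranges overlapped.

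The strains were then compared after DEHP. None of the 86 members had separated libraries, compared with 0.307% of all promoters higher and 0.0311% lower in C57BL/6J, and 3 had a log2 ratio of 1 or more against 2.84% of all promoters. None had −1 or less, against 0.338% of all promoters. The median log2 ratio was 0.11 in the members and 0.04 in all promoters. The 3 members were Rpl17, with 7.4 (SD 3.9) and 1.5 (SD 0.9) normalized reads in C57BL/6J and FVB/N and a log2 ratio of 1.75, Rps29, of the small subunit, with 3.6 and 0.9 and a ratio of 1.28, and Rps27l, with 6.7 and 2.8 and a ratio of 1.02. Rpl29 had 6.2 and 3.5, a log2 ratio of 0.68, and Rps4l had 3.9 and 3.3, a ratio of 0.19. Rpl17 and Rps27l were the 2 members (2.33%) with at least a 2-fold higher level in C57BL/6J under both treatments, compared with 1.48% of all promoters, in comparisons that share no library. After scaling to equal medians the ratio of Rps27l after DEHP was 0.91, under 2-fold, and with a pseudocount of 5 no member was 2-fold higher after DEHP.

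Variants between the strains were counted by the authors in each probe. Rps27l, Rpl29, Rpl17, Rps29 and Rps4l carry 41, 37, 28, 24 and 10 of them, and 41 is the most of any member. At least 1 variant was present in 39 members (45.3%), compared with 46.1% of all promoters, and 18 members (20.9%) carried 10 or more, compared with 13.9%. In these 18 the median log2 ratio of strains was 0.87 in controls and 0.31 after DEHP, and in the 47 members without variants it was 0.33 and 0.04. All promoters had medians of 0.80 and 0.31 with 10 or more variants and 0.49 and 0 without any. In the 21 members with 1 to 9 variants the medians were 0.37 and 0.09, compared with 0.53 and 0.04 in all promoters of that class. Reads of both strains were aligned to a genome of C57BL/6J, and the part of alignment in these differences was not tested. Functional variants of the gene itself were listed for 11 members (12.8%), compared with 24.8% of all promoters.

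**Figure D4:**
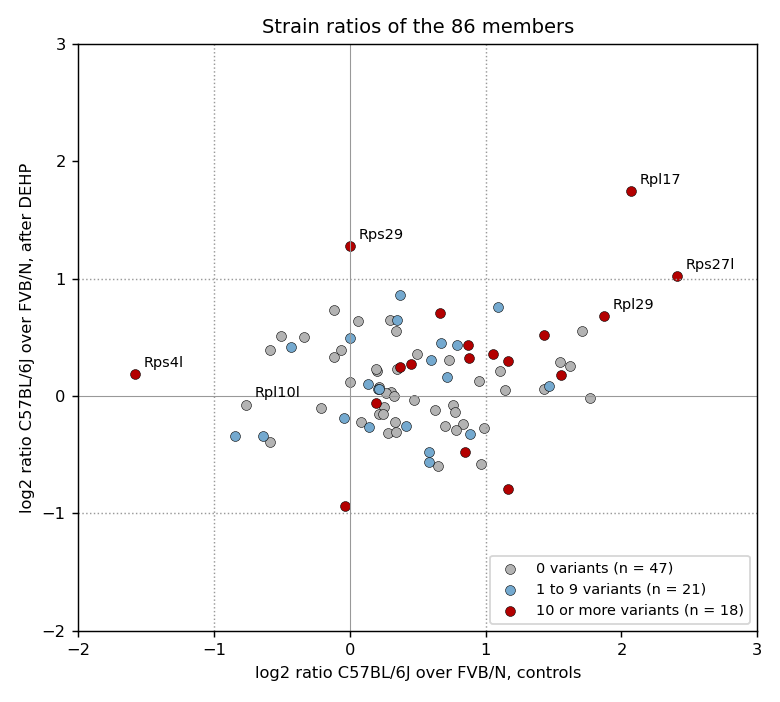
Log2 ratio of means, C57BL/6J over FVB/N, after DEHP against the same ratio in controls for the 86 members, coloured by the number of strain variants in the probe. Dotted lines mark a 2-fold difference. Rpl17 and Rps27l are beyond 1 on both axes, and the 3 members beyond 1 after DEHP carry 10 or more variants.

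The effect of prenatal DEHP was then compared within each strain. In C57BL/6J, 2 members had separated libraries, both lower after DEHP, compared with 1.42% of all promoters lower and 0.249% higher. Rplp2-ps1 had 70.3 (SD 8.8) normalized reads in controls and 22.6 (SD 8.9) after DEHP, a log2 ratio of −1.60. Rpl13, of the large subunit, had 20.4 (SD 3.8) and 8.3 (SD 2.5), a log2 ratio of −1.20. With the bound of 1.79 SD, every control library was above every DEHP library in both (exact permutation p = 0.00794, at most 0.476 after adjustment over all promoters). Neither was separated after scaling the groups to equal sums, where the log2 ratio was −1.05 for Rplp2-ps1 and −0.68 for Rpl13. Both were separated after scaling to equal medians. With a bound of 2 SD Rpl13 was not separated. The probes of the 4 paternally imprinted genes had a median log2 ratio of −0.12 in this strain, with −1.39 for Meg3, −0.47 for H19, 0.23 for Rasgrf1 and 0.32 for Zdbf2.

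Among C57BL/6J members, 3 had a log2 ratio of 1 or more and 10 of −1 or less, against 5.41% and 11.0% of all promoters. After scaling to equal sums the counts were 11 and 1, against 14.7% and 2.22%, so the balance reversed. Beside Rplp2-ps1, a large change at a mean of at least 3 normalized reads was that of Rpl23a, of the large subunit, with 13.1 (SD 5.7) and 4.9 (SD 2.9) normalized reads in control and DEHP. Its log2 ratio was −1.26, but its ranges overlapped. The median log2 ratio was −0.25 in the members and −0.10 in all promoters, and it turned to 0.20 in the members after scaling to equal sums. The ratio was lower at higher levels, but the level includes the C57BL/6J control mean by which the ratio divides. This order is therefore partly built in. In C57BL/6J the ratio had a median of −0.65 in the 17 members with 8 normalized reads or more. It was −0.31 in the 37 members from 3 to 8 and 0.11 in the 32 members under 3. All promoters had −0.69, 0.03 and 0.25 at these levels. In FVB/N the members had −0.39, 0.50 and −0.03, which does not follow that order. All promoters had 0.05, 0.58 and 0.36 there, also highest at the middle level and lowest at the top level.

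In FVB/N, only Rpl10l had separated libraries, compared with 0.859% of all promoters lower after DEHP and 0.774% higher. It had 7.5 (SD 0.6) normalized reads in controls and 3.1 (SD 1.6) after DEHP, a log2 ratio of −1.05 (exact permutation p = 0.00794, at most 0.486 after adjustment over all promoters). In C57BL/6J its log2 ratio was −0.36, from 4.0 (SD 2.2) to 2.9 (SD 2.1), with overlapping ranges, and the difference between the strains was not tested. Rpl10l was also separated after scaling to equal sums or equal medians, but not with a bound of 2 SD. Rpl39l had the same log2 ratio of −1.05, from 4.4 (SD 1.5) to 1.6 (SD 0.8), and Rps4l one of −0.74, with overlapping ranges in both. Of the 8 germline promoters, 7 had a lower mean after DEHP in FVB/N, 2 of them by 2-fold or more, against 28.7% and 2.76% of all promoters, but none had separated libraries. In C57BL/6J 7 of the 8 had a lower mean as well, against 54.8% of all promoters. Dazl had 10.6 (SD 3.3) and 2.8 (SD 1.7) and Sycp3 4.8 (SD 1.7) and 1.5 (SD 0.5) normalized reads in FVB/N control and DEHP. Of the 14 maternally imprinted genes, 10 had a higher mean after DEHP in FVB/N and 9 in C57BL/6J, against 15533 and 9783 of the 22480 promoters. In each strain 4 had a lower mean, against 28.7% of all promoters in FVB/N and 54.8% in C57BL/6J. The FVB/N counts are thus near the background. The median log2 ratio of the 14 was 0.21 in FVB/N and 0.14 in C57BL/6J, compared with 0.35 and −0.10 in all promoters. None of the 14 was separated in FVB/N, and 1 was separated higher in C57BL/6J, against 0.249% of all promoters. The part of both lists in the values of Rpl10l was not tested.

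For the other FVB/N members the balance also depended on the scaling. Of the 86, 10 had a log2 ratio of 1 or more and 4 of −1 or less, against 15.1% and 2.76% of all promoters. After scaling to equal medians the counts were 2 and 17, against 3.86% and 13.5%, and 6 members were separated lower, against 3.25% of all promoters. The largest ratios at a mean of at least 3 normalized reads belonged to Rps3a1, of the small subunit, with 1.5 (SD 2.8) and 7.0 (SD 0.6) normalized reads and a log2 ratio of 1.68, Rplp2, with 1.8 (SD 1.2) and 5.8 (SD 1.7) and a ratio of 1.28, and Rps19bp1, with 2.2 (SD 1.5) and 6.4 (SD 3.0) and a ratio of 1.21. The ranges of the 3 overlapped. The median was 0.11 in the members and 0.35 in all promoters, and it turned to −0.32 in the members after scaling to equal medians.

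Comparing both strains, 27 members (31.4%) had a lower mean after DEHP in both and 22 (25.6%) a higher mean in both, compared with 23.1% and 37.3% of all promoters. In 25 (29.1%) the mean was lower in C57BL/6J and higher in FVB/N, and in 8 (9.30%) the opposite, compared with 30.6% and 5.21%. Rplp2-ps1 alone was lower by 2-fold or more in both strains, with log2 ratios of −1.60 and −1.05, and none was higher by 2-fold in both. Of all promoters, 1.81% were lower and 2.23% higher by 2-fold in both, so these counts are near the background. The difference between the log2 ratios, C57BL/6J minus FVB/N, had a median of −0.35 in the members and −0.50 in all promoters, and it turned to 0.16 and 0.10 in the members after scaling to equal sums and equal medians. This difference was not tested.

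The authors annotated 54 of the 86 members with expression in testis cell populations from an independent dataset of oligonucleotide microarrays, whose scale is not stated. On arrays the values of different genes come from different probes, so they are compared here within a gene. The spermatogonia came from younger mice than the spermatocytes and spermatids. In 50 of the 54 (92.6%) the value was lower in spermatids, the haploid germ cells, than in spermatogonia, the mitotic germ cells, compared with 45.4% of all promoters with a value, and the median difference, spermatids minus spermatogonia, was −1.38, compared with 0.13 in all promoters. The clearest exception was Rpl39l, with 4.61 in Sertoli cells (the somatic support cells), 10.7 in spermatogonia, 12.7 in spermatocytes and 12.6 in spermatids. Its X-linked relative Rpl39 had 10.5 in spermatogonia, 7.28 in spermatocytes and 7.62 in spermatids, and Rps4x had 9.54, 6.30 and 6.51. The X-linked Rpl36a had 3.19, 3.41 and 3.58. Rps4l had 11.7, 11.05 and 10.98, but near-identical copies may not be told apart in such data.

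The other members not lower in spermatids were Rpl3l, Rpl31 and Rps16, with 4.37, 3.82 and 3.55 in spermatids. Rpl31 and Rps16 encode general ribosomal proteins, and whether these low values measure the genes was not tested. Rpl10l had no value.

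**Figure D5:**
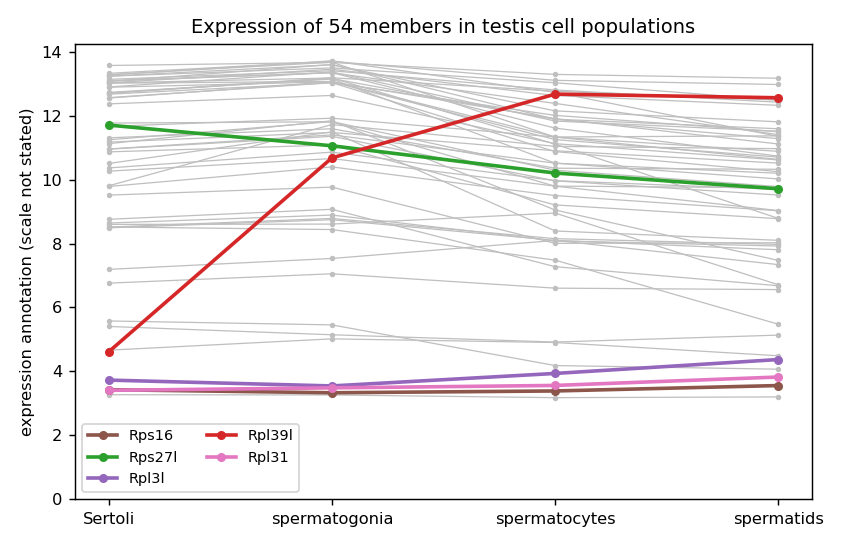
Expression annotation (scale not stated) of 54 members in Sertoli cells, spermatogonia, spermatocytes and spermatids, 1 line per member and 5 members coloured. Values of different members come from different array probes. Most lines go down from spermatogonia to spermatids, while Rpl39l goes up from 4.61 in Sertoli cells to 12.6 in spermatids.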

How the data were processed

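Sperm DNA of 20 mice, 5 in each of 4 groups, was analyzed by MBD-sequencing. Per the labels and methods, Bowtie 0.12.7 was run on mm10. The authors removed read-pairs that aligned at several places or held no CpG, counted pairs over each probe and normalized them with edgeR. The signal values deposited are group means and SDs of normalized reads. Expression values (a microarray score of unstated scale), CG sites and variants are annotations the authors deposited. Deposited fold changes, p-values and FDR of the authors' own comparisons were not used.

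Log2 ratios of means used a pseudocount of 1. Groups were called separated when their ranges of 1.79 SD on each side of the mean, with 0.05 allowed for rounding of mean and SD, left a gap. These counts are lower limits if the authors' SD divides by the number of libraries less 1, as assumed. This rule was tested on simulated data. Groups came from the labels. The members, lists and tests were chosen with earlier results of these data known. Named members are paralogs, pseudogenes, Rps19bp1, the 5 highest and 3 lowest, those separated, the 3 largest ratios per comparison at a mean of at least 3, and X-linked counterparts. Genes chosen after their values were seen are Rpl7a, Rpl18, Rpl26, Rpl31 and Rps16. Parent genes and marker genes come from the lists. Some results for named members are not reported here.

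CG positions came from GRCm38.p6, where 94.2% of the members' probes had the deposited number of CG sites, exons from GENCODE M21 and promoter sequences from RefSeq. Alternatives were scaling to equal sums or medians, a bound of 2 SD, pseudocounts of 0.1 and 5, a filter on means of at least 1 read, and canonical members only. Python 3.11.15, numpy 2.4.6, pandas 2.3.3, scipy 1.17.1, pysam 0.24.0 and matplotlib 3.10.9 were used.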

Additional observations from a re-analysis of the deposited data

How the results depend on the processing

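The C57BL/6J control group had the highest sum of means over all promoters (226268 normalized reads, against 141092 to 153283 in the other groups). Scaling to equal sums therefore moved the comparisons that use this group. The FVB/N control group had the lowest median of means (3, against 4.9 to 5.3 in the other groups). Scaling to equal medians therefore moved the comparisons that use FVB/N controls. Scaled to equal sums, the median log2 ratio of all promoters went from −0.10 to 0.33 for DEHP in C57BL/6J and from 0.54 to 0.00 between the strains in controls. The members had 0 promoters separated lower for DEHP in C57BL/6J and a median of 0.20, and between the strains in controls 1 higher, 2 lower and a median of −0.0665. The difference between the strains in the DEHP ratio had a median of 0.16. Scaled to equal medians, 6 members were separated lower for DEHP in FVB/N, against 3.25% of all promoters (Rpl10l, Rpl14-ps1, Rpl26, Rpl7a, Rplp2-ps1 and Rps4l) with a median of −0.32, the strains in controls had 1 higher, 2 lower and a median of −0.11, and the difference was 0.10. A bound of 2 SD left 1 member separated lower for DEHP in C57BL/6J (Rplp2-ps1) and 0 in FVB/N. Among canonical members only, which are fewer by construction, these counts were 1 and 0, and between the strains in controls 1 was higher and 0 lower. The pseudocount of 0.1 changed no direction of these medians, nor did 5, which was not run for the difference between the strains in the DEHP ratio, and the filter on means of at least 1 read changed no direction and no count of separated members by over 1.5 times. The counts of 2-fold members did depend on the pseudocount, which the separation does not use. With a pseudocount of 5 they were 4 in place of 17 higher in C57BL/6J controls than in FVB/N controls, 0 in place of 3 higher in C57BL/6J than in FVB/N after DEHP, 0 in place of 10 higher after DEHP in FVB/N and 2 in place of 10 lower after DEHP in C57BL/6J, against 3.21%, 0.227%, 0.654% and 5.42% of all promoters. With 0.1 these counts were 26, 6, 18 and 14, against 29.4%, 7.22%, 26.5% and 14.96%.

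No paired analysis was made, because the columns used here hold group means and SDs and carry no replicate number. For the same reason no library was left out in turn. At the members' levels the authors' SD was large, with a median of 0.412, 0.392, 0.446 and 0.335 of the mean in controls and DEHP of C57BL/6J and then of FVB/N, among members with at least 3 normalized reads, so 2-fold differences at such levels mostly stayed undecided. Pairs with several positions were discarded before counting, and what retrotransposed copies lose by this was not tested.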
